A study of Mus musculus with 36 samples.

Results

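The genes described here encode the proteins of blood clotting and of the complement system that the liver secretes into plasma. They were named as 34 mouse gene symbols, and each gene was read from the brightest array probe set that the platform annotation gives to that gene alone. Of the 34 symbols, 32 had such a probe set, and all 32 passed the filter on dim genes, out of 13956 genes tested. The expression of C3 and Klkb1 is not analysed here, because the annotation used does not list a probe set for C3 and pairs that of Klkb1 with a second gene. Liver RNA came from mice of the inbred C57BL/6J strain at an age of 16 weeks. One set of mice ate normal chow, and the other ate a high fat diet with 60% of its calories from fat for 10 weeks. Both sets fed freely under 12 h of light per day, and livers were taken every 4 h from ZT0 to ZT20 (ZT, Zeitgeber time, is the number of hours since the lights came on). Each of the 12 groups had 3 samples on 1 array each, so each diet had 18. The sources used here do not state the sex of the mice. The labels number the samples of a group without saying that each came from its own mouse, so p-values measure only the spread between these samples.

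Clotting runs as a cascade of serine proteases that activate each other until thrombin turns fibrinogen into fibrin, and plasma inhibitors and plasmin hold it back. Complement is a parallel cascade in which lectins or antibodies start a chain of proteases, C3 and C5 are cleaved, and the terminal proteins C5b to C9 assemble into a pore in the target membrane. Hepatocytes, the main cells of the liver, make most of these plasma proteins, and liver-enriched transcription factors such as HNF1, HNF4 and C/EBP are known to drive many of the genes.

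The RefSeq promoter table (build GRCm38.p6) held an entry for 26 of the 34 symbols, of which 24 are tested genes. The stretches shown here lie upstream of the start sites of C8b and C8a, which differed between the diets and sit side by side, of C4bp, which differed in the other direction, and of Fga and Fgb, neighbours of which the first carried a daily rhythm. Each is read 5′ to 3′ on the gene's strand and ends where the gene's annotated span begins. Capitals mark letters of motifs known for liver genes, searched on both strands: GTTAAT, which is only a part of the HNF1 element, the C/EBP site TTGCNNAA and the STAT site TTCNNNGAA. No match shown overlaps another.
C8b, chr4:104766067-104766316, plus strand: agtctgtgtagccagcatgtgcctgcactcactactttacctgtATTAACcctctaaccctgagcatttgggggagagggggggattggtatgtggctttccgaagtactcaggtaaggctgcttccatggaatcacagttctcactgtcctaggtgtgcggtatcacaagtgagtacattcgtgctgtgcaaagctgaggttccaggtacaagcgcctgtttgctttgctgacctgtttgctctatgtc
C8a, chr4:104876488-104876648, minus strand: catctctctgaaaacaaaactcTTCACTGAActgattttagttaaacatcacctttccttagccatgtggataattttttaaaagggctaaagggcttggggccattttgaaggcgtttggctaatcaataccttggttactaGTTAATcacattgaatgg
C4bp, chr1:130661658-130661868, minus strand: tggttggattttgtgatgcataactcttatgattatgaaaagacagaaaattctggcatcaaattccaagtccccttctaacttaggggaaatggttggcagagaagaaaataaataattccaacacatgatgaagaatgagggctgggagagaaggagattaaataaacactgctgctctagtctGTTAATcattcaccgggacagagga
Fga, chr3:83025903-83026152, plus strand: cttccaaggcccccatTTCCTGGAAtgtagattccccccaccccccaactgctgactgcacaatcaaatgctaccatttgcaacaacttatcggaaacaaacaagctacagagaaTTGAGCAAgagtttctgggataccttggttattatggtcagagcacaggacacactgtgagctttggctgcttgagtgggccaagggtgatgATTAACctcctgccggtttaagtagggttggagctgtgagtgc
Fgb, chr3:83049864-83050113, minus strand: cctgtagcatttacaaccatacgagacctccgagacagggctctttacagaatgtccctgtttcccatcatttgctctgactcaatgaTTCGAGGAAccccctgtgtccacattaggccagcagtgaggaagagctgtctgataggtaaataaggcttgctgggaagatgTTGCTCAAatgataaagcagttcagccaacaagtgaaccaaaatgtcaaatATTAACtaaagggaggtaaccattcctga

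Within the 250 bases before the start, the HNF1 letters GTTAAT occurred in 25.9% of the 27 entries of these genes and in 6.43% of all 32851 entries. The 7 carriers of these letters were C8a, C8b, C4bp, Hc, Fga, Fgb and F13b. They include genes that were higher, lower and not called on high fat diet. The 250 bases were counted whole, also where they lie inside the gene's annotated span. All 250 do so for Hc and for Masp2, a carrier of the STAT letters, and 160 for F13b. The C/EBP letters occurred in 25.9% against 9.56%, and the STAT letters in 22.2% against 7.02%. C3 and Klkb1, whose expression was not analysed, are counted among the 27 entries and are among the 7 carriers of the C/EBP letters. Of the letters known for clock factors, the ROR element TAGGTCA occurred in 3.7% against 2.23%, with C6 as its carrier, and the D-box TTANGTAA in 3.7% against 2.06%, with F13b. The E-box CACGTG was found in 0 of the 27 entries and in 6.02% of all entries. These are matches of letters and not measured binding.

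The arrays give 1 intensity per probe set, and values are given as log2(intensity + 16), a scale on which a difference of 1 is close to a doubling. Array medians ran from 75.7 to 95.6 in linear intensity, and arrays of 1 group correlated at 0.976 to 0.993. Each of 10 tested clock genes carried a 24 h rhythm on each diet. Of 6 tested hepatocyte markers, Alb and Ttr among them, 0 were called between the diets, with a summed intensity of 54000 to 62528 on chow and 56063 to 62908 on high fat diet. Of 6 Kupffer cell markers, genes of the macrophages of the liver, 4 were called higher on high fat diet, with a summed intensity of 1157 to 3263 on chow and 1890 to 4609 on high fat diet. Of the stellate cell markers 3 of 6 were higher, and of 3 platelet markers Ppbp was lower. Markers of sinusoidal endothelium (6 tested), neutrophils (3), bile duct (2) and red blood cells (2) had 0 calls. The part of these changes in the results that follow was not tested. In RNA from whole liver, fewer cells of a type and less RNA per cell cannot be told apart.

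Averaged over the 6 times, the complement protease C2 and 4 of the 6 terminal complement genes fell on high fat diet, while C4bp, a complement inhibitor, rose. In the clotting cascade F7, F10 and F12 fell and F9 rose, and the 3 fibrinogen chains had differences of 0.06 or less in size. In all, 12 of the 32 genes passed the test (limma, Benjamini-Hochberg adjusted p under 0.05 over all 13956 genes), which is 37.5% of them against 21% of all genes. The 10 that fell are 31.25% of the 32, where 9.8% of all genes fell, and the 2 that rose are 6.25%, where 11.2% of all genes rose. The median average difference was -0.05 for the 32 genes and 0.02 for all genes tested. Scaling bears on such shares: over all genes 1570 rose and 1367 fell as deposited, 1501 and 1701 after quantile normalization, and 987 and 1930 after each array was centred on its median. The 32 genes were also brighter than all genes tested, with a median log2 level of 11.67 against 7.76. Their median residual standard deviation was smaller, 0.111 against 0.139, so small differences are more easily called. The part of this in the shares was not tested. The symbols were chosen with earlier results of these data known.

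**Figure D1:**
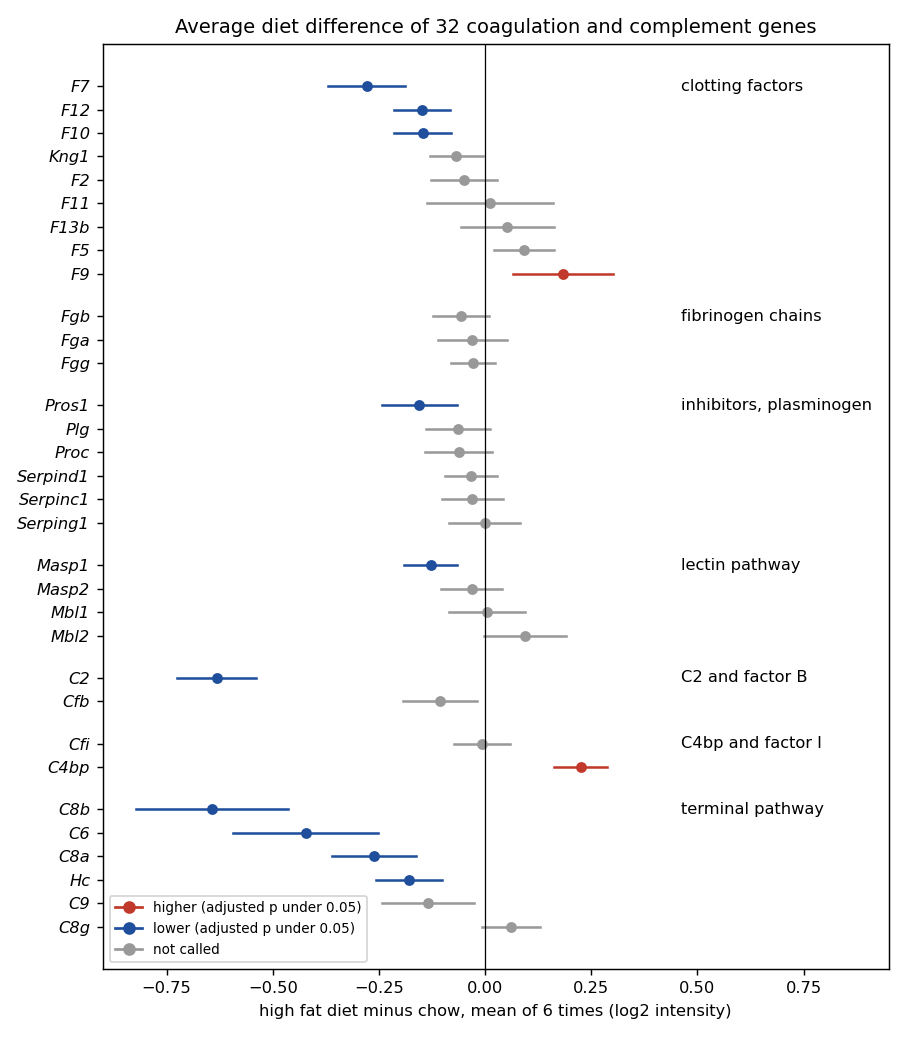
Average difference between high fat diet and chow (log2 units, mean of 6 times) for 32 genes grouped by role, with points for estimates and bars for 95% confidence intervals (limma, 36 samples). C2 and C8b lie farthest to the left at -0.63 and -0.64, and C4bp and F9 are the only points coloured as higher.

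Among the clotting factors, F7, the protease that starts clotting with tissue factor, fell by 0.28 ± 0.04 (SE, n = 18 per diet; limma adjusted p = 2.5e-05), to 82.4% of its chow level on this scale. Its values ran from 9.68 over a median of 9.88 to 10.06 on chow, and from 9.17 over 9.59 to 10.02 on high fat diet. The diets overlapped over the whole day, yet at 5 of the 6 times each of the 3 high fat samples lay below each of the 3 chow samples. F10, which joins factor V to make thrombin, fell by 0.15 ± 0.03 (limma adjusted p = 0.00141) and was lower at 6 of 6 times. F12, the contact factor, fell by 0.15 ± 0.03 (limma adjusted p = 0.000905) and was lower at 5 of 6. F9, the vitamin K dependent factor lacking in haemophilia B, rose by 0.18 ± 0.06 (limma adjusted p = 0.0226), from a median of 11.06 on chow to 11.19 on high fat diet. Its samples overlapped widely, from 10.60 to 11.41 on chow and from 10.87 to 11.57 on high fat diet, and its difference was above 0 at 5 of 6 times. That call was lost when the arrays were centred on their medians (adjusted p = 0.0687), with array weights (0.0671) and without the 4 arrays of lowest quality weight (0.0508). The other 5 clotting factors were not called: F2, the thrombin precursor, had -0.05, F5, the cofactor of factor X, 0.09, F11 0.01, F13b, the carrier chain of the fibrin cross-linking enzyme, 0.05, and Kng1, which carries bradykinin, -0.07. F7 (chr8:13025506-13035809) and F10 (chr8:13037308-13056676) lie 1.5 kb apart.

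Fibrinogen, the clot-forming protein, is made of 3 chains whose genes lie together on chromosome 3. Fgb differed by -0.06 ± 0.03 between the diets, Fga by -0.03 ± 0.04 and Fgg by -0.03 ± 0.03. None of the 3 was called, and their 95% intervals together ran from -0.123 to 0.051. Under median centring Fgb was called lower (-0.09, limma adjusted p = 0.04). A second Fga probe set gave -0.10 ± 0.07 (limma adjusted p = 0.292).

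Of the inhibitors and fibrinolytic genes, Pros1, which encodes protein S, the cofactor of activated protein C, fell by 0.16 ± 0.04 (limma adjusted p = 0.00894). Its values ran from 9.29 over a median of 9.44 to 9.62 on chow and from 8.95 over 9.28 to 9.60 on high fat diet, so the ranges overlapped while the difference was below 0 at 6 of 6 times. The other 5 genes of this role were not called. Serpinc1 (antithrombin) had -0.03, Serpind1 (heparin cofactor II) -0.03, Serping1 (C1 inhibitor) 0.00, Plg (plasminogen) -0.06 and Proc (protein C) -0.06. The 20 genes that were not called had differences of 0.001 to 0.135 in size, with a median of 0.051, and the outermost bounds of their 95% intervals were -0.244 and 0.191.

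Of the lectin pathway, Masp1, a protease bound to mannose-binding lectin, fell by 0.13 ± 0.03 (limma adjusted p = 0.00244) and was lower at 6 of 6 times. It ran from 11.07 over a median of 11.37 to 11.51 on chow and from 10.99 over 11.22 to 11.45 on high fat diet. Masp2, the protease that cleaves C4 and C2, had -0.03, and the mannose-binding lectins Mbl1 and Mbl2 had 0.00 and 0.09, none of them called. Complement C2 supplies the protease of the classical and lectin C3 convertase, and factor B (Cfb) is its counterpart in the alternative pathway. C2 fell by 0.63 ± 0.05 (limma adjusted p = 9.33e-12), to 64.5% of its chow level on this scale. Chow samples ran from 9.89 over a median of 10.11 to 10.28, and high fat samples from 9.16 over 9.41 to 10.09. At each of the 6 times the 3 high fat samples lay below the 3 chow samples, although at ZT8 chow read 10.09, 10.17 and 10.12 and high fat diet 9.92, 10.09 and 9.59, so that the nearest samples differed by less than 0.01. Cfb had -0.11 ± 0.04 (limma adjusted p = 0.0749), below 0 at 6 of 6 times but not called. C2 (chr17:34862602-34882100) and Cfb (chr17:34856374-34862514) lie 87 bases apart. The difference between their diet effects was not tested.

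C4bp, which encodes C4b-binding protein, a soluble inhibitor of the classical and lectin convertase, rose by 0.22 ± 0.03 (limma adjusted p = 2.0e-06), to 1.17 times its chow level. Its values ran from 11.49 over a median of 11.74 to 11.94 on chow and from 11.79 over 11.92 to 12.12 on high fat diet. It was higher at 6 of 6 times, and at 5 of them every high fat sample lay above every chow sample. Cfi, the protease that uses C4b-binding protein as cofactor, had -0.01 ± 0.03 and was not called.

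In the terminal pathway, C8b, which encodes the beta chain of C8, fell by 0.64 ± 0.09 (limma adjusted p = 2.36e-06), to 64.1% of its chow level, within its error of the fall of C2. The 18 chow samples were close together, from 12.17 over a median of 12.28 to 12.49. The 18 high fat samples ran from 10.65 over 11.67 to 12.45, so some of them lay within the chow range and others far below it. C6, the second protein of the pore, fell by 0.42 ± 0.08 (limma adjusted p = 0.000363), from a median of 11.61 on chow, with a range of 11.34 to 11.75, to 11.16 on high fat diet, with a range of 10.45 to 11.91. C8a, the alpha chain of C8, fell by 0.26 ± 0.05 (limma adjusted p = 0.000175), from 11.51 to 11.81 on chow around a median of 11.65 to 10.88 to 11.84 on high fat diet around 11.38. Hc, the mouse gene of C5, fell by 0.18 ± 0.04 (limma adjusted p = 0.000758), with medians of 12.24 and 12.09. All 4 were lower at 6 of 6 times. C9, which forms the wall of the pore, had -0.14 ± 0.05 (limma adjusted p = 0.0696) and C8g, the gamma chain of C8, 0.06 ± 0.03 (limma adjusted p = 0.209), neither of them called. C8b (chr4:104766317-104804548) and C8a (chr4:104815679-104876487) lie 11.1 kb apart on opposite strands, whereas C8g is on chromosome 2.

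The calls of C2, C8b, C6, C8a, Hc, F7, F10, F12, Pros1, Masp1 and C4bp stood in each of the 13 other settings listed among the alternatives and without any 1 of the 36 arrays. Without overlap at 5 or more of the 6 times in 1 direction were F7, C2 and C4bp, 9.38% of the 32 genes against 1.81% of all genes. At 3 or more times there were 10, 31.2% against 11.3%. Without overlap in either direction were 8 genes at ZT0 (26.5% of all genes), 12 at ZT4 (21.6%), 4 at ZT8 (14.5%), 14 at ZT12 (24.6%), 8 at ZT16 (18%) and 7 at ZT20 (15.5%), which for the 32 genes is 25%, 37.5%, 12.5%, 43.8%, 25% and 21.9%. A difference of 1 sign at all 6 times was found for 12 genes, 37.5% against 14.3%. Apart in both directions at different times was 1 gene, F11, 3.12% against 7.09% of all genes. None of the 32 had all 18 high fat samples on 1 side of all 18 chow samples, as 0.129% of all genes did.

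**Figure D2:**
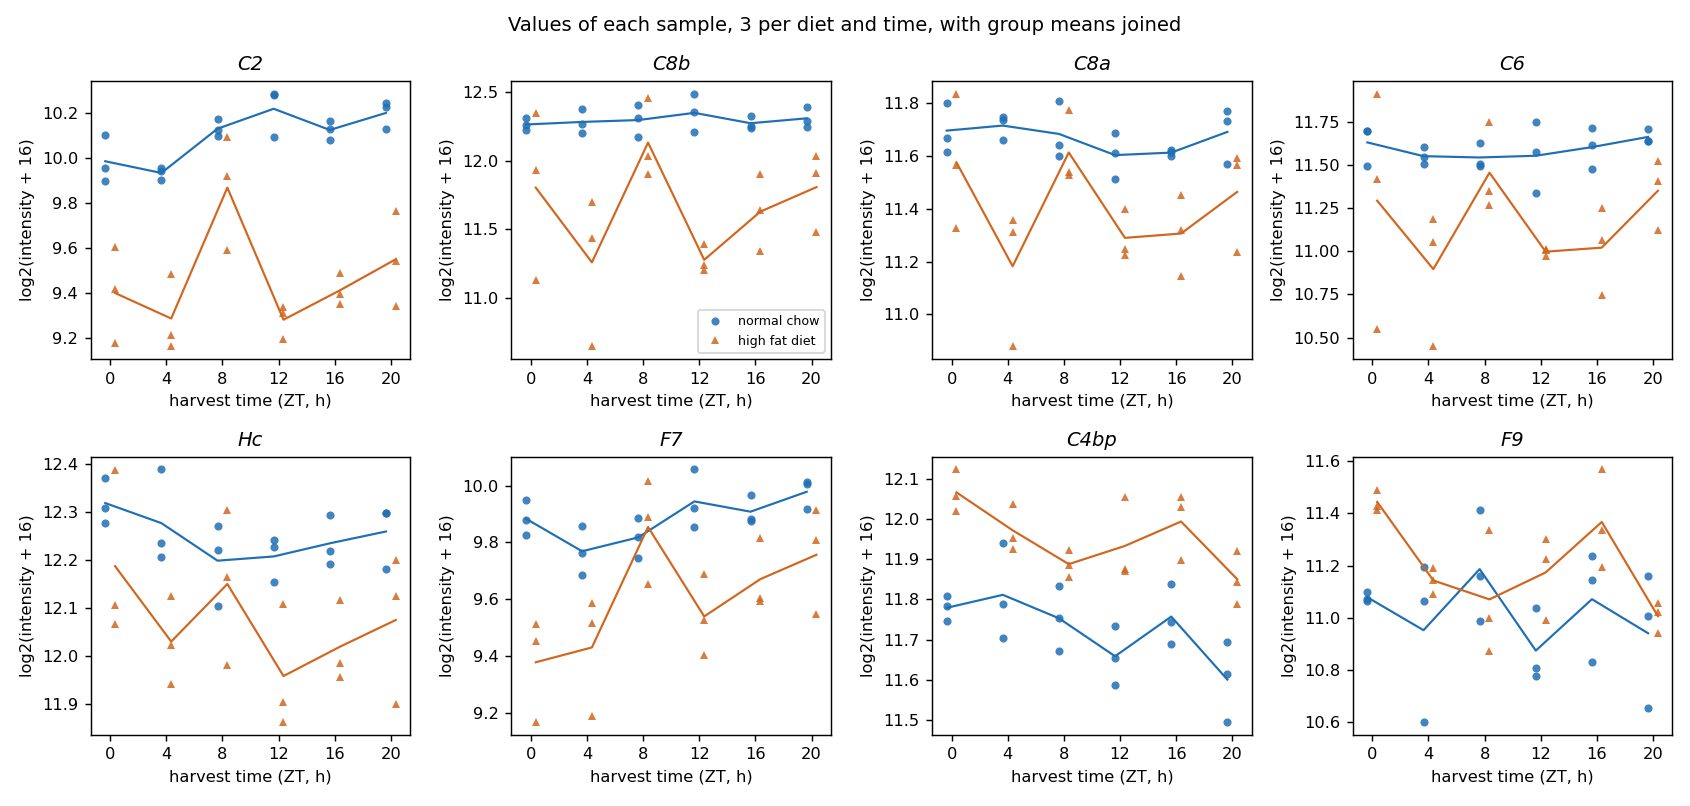
Log2(intensity + 16) of each sample against harvest time (ZT, h) for 8 genes called between the diets, with circles for chow, triangles for high fat diet, 3 samples per group and lines through group means. The chow samples of C8b lie between 12.17 and 12.49 at every time, while its high fat samples spread from 10.65 to 12.45 and come nearest to chow at ZT8.

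Tested at each time, the diets differed for 4 genes at ZT0, 4 at ZT4, 0 at ZT8, 5 at ZT12, 1 at ZT16 and 1 at ZT20 (limma, adjusted p under 0.05 over all genes within a time). The shares of all genes called were 7.12% at ZT0, 3.69% at ZT4, 0.774% at ZT8, 5.44% at ZT12, 2.22% at ZT16 and 2.04% at ZT20. At ZT8, where few genes of any kind were called, 2 of the 32 (C2 and Pros1) had an unadjusted limma p under 0.05, against 9.41% of all genes. With array weights in limma, 5 of the 32 were called at ZT8, 5 at ZT16 and 6 at ZT20, and after quantile normalization 4 at ZT20. The shares of all genes called at each time in those 2 settings are not given here. The shares above belong to the main fit and do not match these counts. C2 was called at the other 5 times, from -0.58 ± 0.11 at ZT0 (limma adjusted p = 0.00213) to -0.94 ± 0.11 at ZT12 (limma adjusted p = 2.07e-06). At ZT12 chow read 10.28, 10.28 and 10.09 and high fat diet 9.34, 9.31 and 9.19, so that the groups were well apart.

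C8b was called at ZT4 and ZT12. At ZT12 its 3 chow samples read 12.21, 12.49 and 12.35, and its 3 high fat samples 11.39, 11.24 and 11.20, a difference of -1.07 ± 0.22 (limma adjusted p = 0.00245). At ZT4 chow read 12.20, 12.37 and 12.27, and high fat diet 10.65, 11.70 and 11.44, a difference of -1.02 ± 0.22 (limma adjusted p = 0.00431). The first of those high fat samples is the lowest of all 36, and without it the difference at ZT4 was -0.72 (limma adjusted p = 0.0783). C8a was called at ZT4 with -0.53 ± 0.12 (limma adjusted p = 0.00763), where the same sample read 10.88 and the others 11.36 and 11.31, and its call was likewise lost without that sample (-0.38, limma adjusted p = 0.117). At ZT8 C8b read 12.17, 12.40 and 12.31 on chow and 12.04, 12.45 and 11.90 on high fat diet, and the groups overlapped.

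F7 was called at ZT0 with -0.51 ± 0.11 (limma adjusted p = 0.00688) and at ZT12 with -0.41 ± 0.11 (limma adjusted p = 0.0249). At ZT0 its chow samples read 9.82, 9.95 and 9.88 and its high fat samples 9.17, 9.45 and 9.51, all of them below chow. Without the lowest of these, replicate 1, the difference was -0.40 (limma adjusted p = 0.0559). The ZT12 call of F7 was lost without chow replicate 1 or 2 or high fat replicate 2 or 3 of that time (limma adjusted p = 0.0748 to 0.14). C4bp was called at ZT0 (0.29 ± 0.07, limma adjusted p = 0.0181) and at ZT12 (0.28 ± 0.07, limma adjusted p = 0.025). Its ZT0 call was lost without chow replicate 2 or 3 or high fat replicate 1 or 2, and its ZT12 call without chow replicate 1 or 2 or high fat replicate 2. Both calls were also lost under median centring (limma adjusted p = 0.094 and 0.0624). F12 was called at ZT0 (-0.29 ± 0.08, limma adjusted p = 0.0237), a call lost without chow replicate 2 or 3 or high fat replicate 1 or 2. F10 was called at ZT12 (-0.28 ± 0.08, limma adjusted p = 0.0389), a call lost without any chow replicate or without high fat replicate 2 or 3, and when no gene was filtered out (limma adjusted p = 0.0644).

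Mbl2, which was not called on average, rose at ZT4. Its chow samples there read 9.90, 9.75 and 9.91 and its high fat samples 10.38, 10.31 and 10.26, without overlap, for a difference of 0.46 ± 0.12 (limma adjusted p = 0.0187). The call was lost without chow replicate 2 (0.41, limma adjusted p = 0.105) or without high fat replicate 1 or 2. At the other 5 times its difference lay between -0.08 and 0.13.

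A change of the diet difference over the day was tested directly. None of the 32 genes passed (limma interaction F test with 5 degrees of freedom), where 0.631% of all genes did. At an unadjusted p under 0.05 were 4 genes, F7, Mbl2, C2 and C8b, 12.5% of the 32 against 13.4% of all genes. With array weights 4 of the 32 passed, and the share of all genes that passed in that fit is not given here. The smallest adjusted p was that of C2, 0.205. Calls at some times and not at others are therefore not shown to differ between times in the fit as designed.

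**Figure D3:**
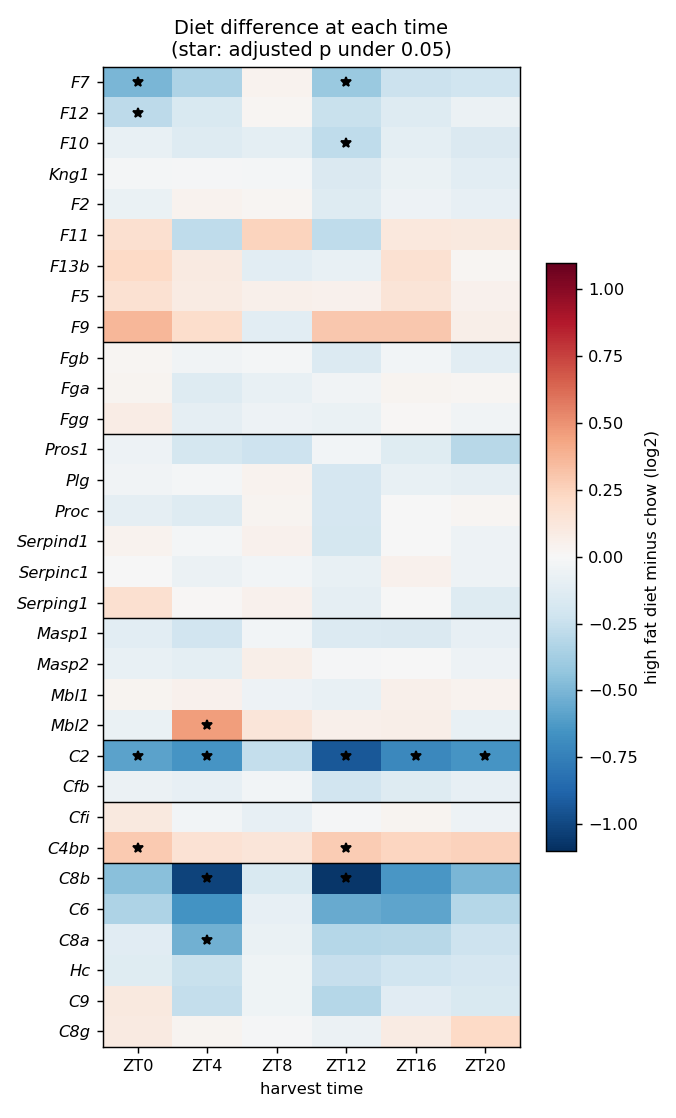
Difference between high fat diet and chow (colour, log2 units) for 32 genes, grouped by role between black lines, at 6 harvest times, with a star where the limma adjusted p was under 0.05. The darkest cells are C8b at ZT12 and ZT4 and C2 at ZT12, and the ZT8 column holds no star.

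On high fat diet some of these genes also varied more between samples of the same group. The standard deviation of C8b within groups was 0.092 on chow and 0.395 on high fat diet, a ratio of 4.28 that ranks as number 3 among 13956 genes. C6 had 0.115 and 0.367 (ratio 3.19, number 16 in rank), F11 0.121 and 0.310, C2 0.0723 and 0.18, F7 0.0737 and 0.176, C8a 0.0836 and 0.194, and C9 0.103 and 0.210. These 7 genes, 21.9% of the 32, had a ratio of 2 or more, where 1.21% of all genes did. The ratio was above 1 for 20 of the 32, 62.5% against 40.7% of all genes, and it was below 1 for C4bp (0.831), F9 (0.680) and Fgg (0.798). This measure was chosen after the values were seen and is given as a description without a test. It did not hold at each time. At ZT12 the standard deviation (n = 3) was smaller on high fat diet than on chow for C8b (0.101 against 0.141) and C6 (0.0198 against 0.205). The same held for F11 (0.0144 against 0.0642) and C2 (0.076 against 0.109), but not for F7, C8a and C9. For C8b it was widest on high fat diet at ZT0 (0.618) and ZT4 (0.545). The limma fit uses 1 spread for both diets. A fit with 1 array variance per diet, added after the data were seen, gave the same counts of calls in each of the tests of this report. That variance is shared by all genes, whose median ratio was 0.933. The fit therefore could not show what a larger spread of single genes does to their calls.

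The same high fat samples were high or low in several of these genes at once. At ZT0 the 3 high fat samples read 11.13, 11.93 and 12.35 for C8b, 10.55, 11.42 and 11.91 for C6, and 9.29, 9.86 and 10.42 for F11, in the same order each time. Over the 18 high fat samples, each taken as its deviation from the mean of its group, C6 followed C8b with Pearson's r = 0.974 and Spearman's rho = 0.979 (permutation within groups, p = 7e-05, adjusted p = 0.00103 over 44 relations, and p = 1e-04 for rho, adjusted 0.00147). Without the 2 samples farthest from the median of C6, r was 0.982. On chow the same pair had r = 0.588 and rho = 0.509 (permutation p = 0.063 and 0.086, adjusted p = 0.111 and 0.127), and 0.251 without the 2 farthest.

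C8a followed C8b on high fat diet with r = 0.941 and rho = 0.959 (permutation p = 4e-04 and 0.00019, adjusted p = 0.00251 and 0.00167), and r was 0.908 without the 2 farthest samples. On chow the 2 neighbouring genes had r = 0.277 and rho = 0.280 (permutation p = 0.39 and 0.38, adjusted p = 0.481 and 0.447). F11, a clotting factor on chromosome 8, had r = 0.955 and rho = 0.971 with C8b on high fat diet, r = 0.941 without the 2 farthest samples, and r = -0.109 and rho = -0.063 on chow. F11 was paired with C8b after its values were seen, so these values are a description and no p is given. Among the other terminal genes on high fat diet, C9 followed C8a with r = 0.948 and Hc with r = 0.857 (permutation adjusted p = 0.00066 and 0.00249, with rho = 0.895 and 0.858). On chow these pairs had r = 0.271 and 0.528 (permutation adjusted p = 0.494 and 0.147). Some terminal pairs were called on chow too. C9 and C8b had r = 0.731 on chow and 0.846 on high fat diet (permutation adjusted p = 0.042 and 0.00367). Hc and C8b had 0.707 and 0.737 (permutation adjusted p = 0.0232 and 0.0101). These chow calls were lost in 12 and 6 of 42 other settings.

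C8g encodes the remaining chain of the C8 protein. Its deviations had r = 0.136 and rho = 0.141 with those of C8b on high fat diet (permutation p = 0.6 and 0.58, adjusted p = 0.641 and 0.656), and r = 0.595 and rho = 0.606 on chow (permutation p = 0.018 and 0.022, adjusted p = 0.0388 and 0.0455). That chow correlation was not called in 13 of 42 other settings (r = 0.461 to 0.717, adjusted p up to 0.301). The difference between the diets in these correlations was not tested. Within groups C8b and C8a had standard deviations of 0.092 and 0.0836 on chow, against 0.395 and 0.194 on high fat diet. A narrow range can lower r, so a low r on chow does not show that these genes vary apart there. All genes of a sample share its array and scaling, and the 496 pairs among the 32 genes had a median r of 0.251 on chow and 0.456 on high fat diet. The labels name no batch, so no value within batches can be given. Over the 42 settings the C6 and C8b correlation on high fat diet ran from 0.972 to 0.979, and that of F11 and C8b from 0.929 to 0.964.

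**Figure D4:**
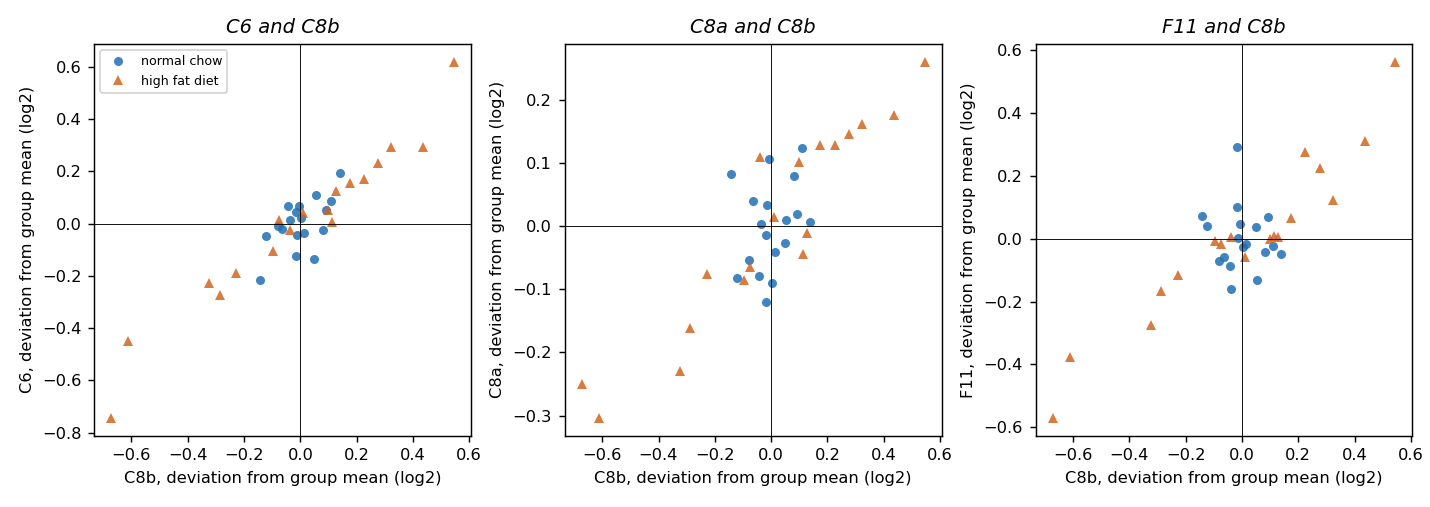
Deviation of each sample from the mean of its group (log2 units) for C6, C8a and F11 against that of C8b, with circles for 18 chow samples and triangles for 18 high fat samples. The triangles lie along a line (r = 0.974, 0.941 and 0.955), whereas the circles form a small cloud near 0.

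Neighbouring genes of other pathways gave further values. Cfb followed C2 with r = 0.753 and rho = 0.798 on high fat diet (permutation p = 0.0022 and 0.0018, adjusted p = 0.00896 and 0.0074) and with r = 0.518 and rho = 0.624 on chow (permutation p = 0.016 and 0.0091, adjusted p = 0.0365 and 0.0222). F10 and F7 had r = 0.601 and rho = 0.606 on high fat diet (permutation p = 0.026 for each, adjusted p = 0.0511 and 0.0517) and 0.321 and 0.317 on chow (permutation p = 0.21 and 0.22, adjusted p = 0.284 and 0.291). Fgg followed Fgb on both diets, with r = 0.840 and rho = 0.831 on high fat diet and 0.822 and 0.759 on chow (permutation adjusted p = 0.00249 and 0.00176, and 0.0101 and 0.0144). After quantile normalization r was 0.391 on high fat diet and 0.365 on chow (permutation adjusted p = 0.165 and 0.39). The chow correlation of Cfb and C2 was not called in 13 of 42 other settings, most of them without 1 chow array, with r down to 0.41 and adjusted p up to 0.197.

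A 24 h cosine wave was called for 4 of the 32 on chow, 12.5% against 20.6% of all genes, and for 4 on high fat diet, 12.5% against 11%. Fga, Mbl1 and Masp1 were called on both diets, 9.38% against 8.2%, F11 on chow and Fgg on high fat diet. The median amplitude, in log2 units from the mean of the wave to its peak, was 0.064 on chow and 0.062 on high fat diet for the 32 genes, and 0.093 and 0.077 for all genes tested. A fitted amplitude is never below 0 and grows with the spread between samples. The median residual standard deviation was 0.111 for the 32 genes and 0.139 for all, so these medians do not compare the strength of rhythms.

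Fga had an amplitude of 0.19 ± 0.04 (SE) with its peak at ZT22.5 on chow (limma adjusted p = 0.0012) and of 0.24 ± 0.04 with its peak at ZT21.4 on high fat diet (limma adjusted p = 7.31e-05). At ZT20 its chow samples read 11.98, 12.08 and 12.06 and its high fat samples 12.02, 12.24 and 11.94. At ZT12 they read 11.52, 11.83 and 11.72 on chow and 11.78, 11.68 and 11.49 on high fat diet, below every sample of ZT20 on the same diet. The second Fga probe set had a larger amplitude, 0.54 ± 0.07 on chow with a peak at ZT21.3 (limma adjusted p = 9.0e-07) and 0.56 ± 0.07 on high fat diet with a peak at ZT20.1 (limma adjusted p = 8.7e-07). Both probe sets were thus called on both diets, with amplitudes that differ by over 2 times between them. Fgg was called on high fat diet with an amplitude of 0.10 ± 0.03 and a peak at ZT22.9 (limma adjusted p = 0.0208) and had 0.06 ± 0.03 on chow (limma adjusted p = 0.177). The Fgg call was lost without high fat replicate 2 or 3 of ZT0 or replicate 1 or 3 of ZT12 (limma adjusted p = 0.0511 to 0.063), under median centring and with array weights. Fgb had 0.04 ± 0.03 on chow and 0.08 ± 0.03 on high fat diet and was not called.

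Mbl1, a lectin that binds microbial sugars, peaked at ZT21.9 on both diets, with an amplitude of 0.21 ± 0.04 on chow (limma adjusted p = 0.00122) and 0.27 ± 0.04 on high fat diet (limma adjusted p = 6.89e-05). Masp1, its protease, peaked at the other side of the day, at ZT7.72 on chow with 0.12 ± 0.03 (limma adjusted p = 0.0108) and at ZT7.85 on high fat diet with 0.13 ± 0.03 (limma adjusted p = 0.0127, and 0.0515 under median centring). F11, the factor that activates factor IX, had the largest amplitude of the brightest probe sets, 0.35 ± 0.08 with a peak at ZT6.18 on chow (limma adjusted p = 0.00715). Its chow samples read 10.07, 10.01 and 10.02 at ZT8 and 9.22, 9.25 and 9.67 at ZT16. On high fat diet F11 had 0.27 ± 0.08 with a peak at ZT5.34 (limma adjusted p = 0.0666), with samples from 9.29 to 10.42 at ZT0 alone. With array weights the high fat amplitude of F11 was 0.36 and was called (limma adjusted p = 0.00042), as it was without any 1 of 5 arrays, namely high fat replicates 1 and 3 of ZT0, 1 of ZT4, 3 of ZT16 and 2 of ZT20. Without the 4 arrays of lowest quality weight its chow amplitude was 0.31 (limma adjusted p = 0.0515).

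A difference in rhythm between the diets was called for 0 of the 32 genes (limma F test), at an unadjusted p under 0.05 also for 0 of them, against 8.32% of all genes, and 0.0287% of all genes were called. An F test of any difference between times, which needs no wave shape, called 4 of the 32 on chow (F11, Fga, Mbl1 and Mbl2) against 21% of all genes. On high fat diet it called 9 (F7, F11, Fga, Mbl1, Mbl2, Masp1, C2, C8a and C8b), 28.1% against 16.8%. For C2 and C8b on high fat diet the highest group mean was that of ZT8, 9.87 ± 0.25 and 12.13 ± 0.29 (SD, n = 3), and ZT4 and ZT12 were lowest, at 9.29 and 9.28 for C2 and at 11.26 and 11.28 for C8b.

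**Figure D5:**
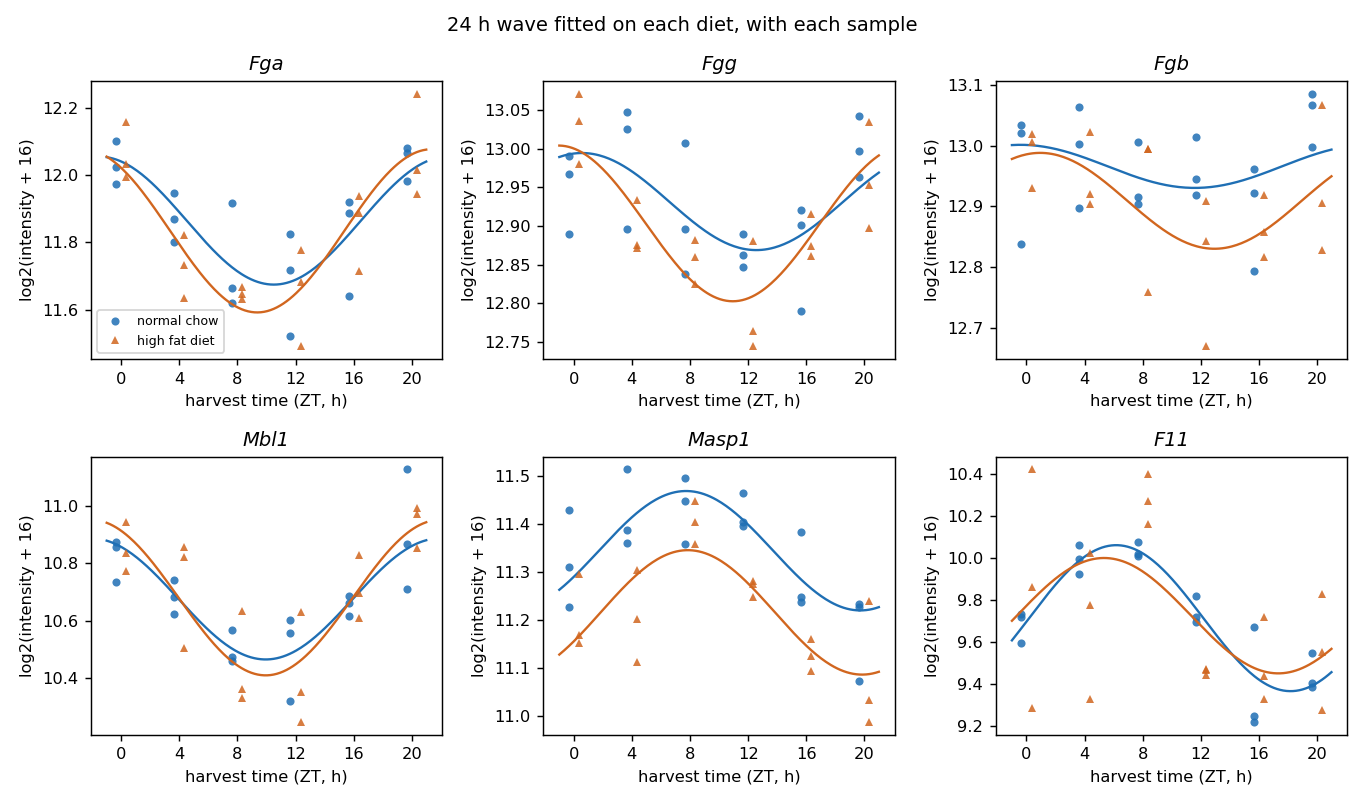
Log2(intensity + 16) of each sample against harvest time (ZT, h) for 6 genes, with circles for chow, triangles for high fat diet and lines for the 24 h wave fitted on each diet. Fga, Fgg and Mbl1 have waves that are high near ZT0 and low near ZT10, whereas those of Masp1 and F11 are high near ZT6 to ZT8.

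The other genes of these systems were counted in 4 lists, whose counts stand beside 11.2% of all genes higher and 9.8% lower. The median differences were 0.11 for the further complement genes, 0.06 for clotting, 0.05 for fibrinolysis and 0.01 for vitamin K and secretion, and 0.02 for all genes tested. Of 27 further complement genes tested, 12 were higher on high fat diet and 0 lower (limma). The 4 with the smallest p were the collectins Colec11 (0.35 ± 0.07, limma adjusted p = 0.000461) and Colec10 (0.41 ± 0.09, 0.00133), the classical pathway protease C1s1 (0.21 ± 0.04, 0.000802) and Cd59a, which blocks the pore on the body's own cells (0.27 ± 0.06, 0.00147). C1s1 and C1s2 are close copies that probes may not tell apart. C1qa, C1qb and C1qc, which macrophages make and which were picked out after their values were seen, rose by 0.25, 0.48 and 0.36 (limma adjusted p = 0.00428, 0.0047 and 0.0153), beside the Kupffer cell markers Clec4f (0.31) and Cd5l (0.56). Vsig4 (0.53) stands in both lists. C4b, the complement protein that C2 binds, had 0.08 ± 0.04 (limma adjusted p = 0.121), and C7, the terminal gene that is not in the member list, -0.13 (limma adjusted p = 0.395).

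Of 15 further clotting genes tested, 2 rose, Hgf (0.36 ± 0.06) and Hgfac (0.22 ± 0.04), a growth factor that resembles plasminogen and its activating protease, and 2 fell, Serpina10 (-0.13 ± 0.04) and Proz (-0.10 ± 0.03), which encode the protein Z dependent inhibitor of factor X and its cofactor protein Z. These counts are near the shares over all genes. Of 7 further fibrinolysis genes 2 rose, Anxa2 (0.73 ± 0.12), a plasminogen receptor on cells, and Plgrkt (0.18 ± 0.06, limma adjusted p = 0.0237), another one. The Plgrkt call was lost under quantile normalization (limma adjusted p = 0.113), under median centring (0.0849) and without the 4 arrays of lowest weight (0.118). Of 12 genes for vitamin K dependent carboxylation and for secretion, Sec24a (0.16 ± 0.03) and Sar1b (0.17 ± 0.05), parts of the coat of vesicles leaving the endoplasmic reticulum, rose, and Vkorc1 (-0.12 ± 0.03), the vitamin K reductase that warfarin blocks, fell (limma adjusted p = 0.0112). The Sar1b call was lost under median centring (limma adjusted p = 0.0711). Ggcx, the carboxylase itself, had -0.09 ± 0.03 (limma adjusted p = 0.0694).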

How the data were processed

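Liver RNA was labelled for whole-transcript Affymetrix arrays, per the labels' protocols. The deposited values are linear intensities of 35556 probe sets, made with Affymetrix Expression Console 1.1.1 and PLIER 2.0, per the submitters' processing notes. How arrays were normalized against each other is not given in the sources used here. Precision is limited by how many arrays there are.

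Values were used as log2(intensity + 16), which understates the change of dim genes. Probe sets with 1 annotated gene (21789) gave 19938 genes, each read from its brightest probe set, and the 13956 above the 30th percentile of mean level (log2 6.11) were tested. A limma 3.58.1 fit in R 4.3.3 with 1 mean per group (36 arrays, 24 residual degrees of freedom) gave the average difference, that at each time and the interaction. A second fit with a 24 h cosine and sine per diet gave the rhythms. P-values were adjusted by Benjamini-Hochberg over all tested genes within each test. Intervals are at 95%. Correlations used 100000 2-sided permutations of samples within groups, and the 44 relations (22 pairs on 2 diets) were pairs of terminal genes, of neighbours and of chains of 1 protein, plus F11 with C8b. The fits and the permutation were tested on simulated data. These were independent values with the same spread of a gene on both diets. They did not cover a larger spread on 1 diet or deviations shared between genes.

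The 34 symbols and the other gene lists were chosen with earlier results of these data known. The rule names every symbol called in a test, and of the other lists up to 4 called genes per direction with the smallest p. Same-numbered samples of the 2 diets deviated together with r from -0.41 to 0.35, so the numbers were not taken to pair them. Alternatives were quantile normalization, median centring, other filters and offsets, averaging all probe sets of a gene, array weights, another variance prior, a replicate block, a stricter threshold, F tests over times and leaving out each array. Fits with array weights at 1 variance per diet and without the 4 arrays of lowest weight were added after seeing the data. Gene positions and promoter stretches are from RefSeq (GRCm38.p6), and motif letters were chosen after the values were seen.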

Additional observations from a re-analysis of the deposited data

Results flagged for a closer look

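F11 was apart between the diets in opposite directions at neighbouring times, although neither difference was called. At ZT8 its high fat samples read 10.27, 10.40 and 10.16, all above the chow samples (10.07, 10.01 and 10.02), a difference of 0.242 (limma adjusted p = 0.736). At ZT12 they read 9.47, 9.47 and 9.45, all below chow (9.82, 9.70 and 9.72), a difference of -0.283 (limma adjusted p = 0.446). The difference between these 2 times alone was not tested, and the limma interaction test of F11 over all 6 times had an adjusted p of 0.529. Of the 32 genes 1, F11, was apart in both directions at different times, 3.12% against 7.09% of all genes tested.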

How the results depend on the processing

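Across the alternatives 0 called results changed direction. Average differences near 0 that were not called did change sign in some settings or without 1 array, for example those of F11 (0.01), Mbl1 (0.00), Serping1 (0.00) and F13b (0.05). The 12 counts of calls stayed within 1.5 times of the reported value 565 times and moved 26 times. Under quantile normalization 4 genes were higher on average, where 1501 of all genes were, and 4 were called at ZT20. Under median centring 1 was higher, where 987 of all genes were, and 2 were rhythmic on high fat diet. In that setting 14 were lower, within 1.5 times of the 10 reported, where 1930 of all genes were. With an offset of 64, 2 were called at ZT20. Array weights gave 5 calls at ZT8, 5 at ZT16, 6 at ZT20 and 4 in the interaction, with no share over all genes from that fit beside them. At an adjusted p under 0.01, 1 gene was higher, 2 were called at ZT0, 2 at ZT12 and 2 were rhythmic on high fat diet, and the F test over times gave 9 on high fat diet. Without the 4 arrays of lowest weight (chow ZT4 replicate 2, chow ZT20 replicate 3, high fat ZT20 replicate 2 and chow ZT16 replicate 1) 1 was higher and 2 were called at ZT16. The cause of these moves was not tested, beyond the stricter threshold and the fewer arrays. For the other counts of these settings the shares of all genes are not given here, apart from the F test over times.

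Leaving out 1 array at a time gave 2 to 3 genes higher, 10 to 12 lower, 1 to 6 called at ZT0, 1 to 5 at ZT4, 0 at ZT8, 2 to 6 at ZT12, 1 to 3 at ZT16, 1 at ZT20, 0 in the interaction, 4 rhythmic on chow, 3 to 5 on high fat diet and 0 in the difference. F5, Cfb and C9, which miss the average call, each passed it in 5 of these 36 fits. In the 13 other settings F5 and Kng1 passed it in 4 each, Cfb in 3 and C9 in 2. Fgb passed it in 1 (median centring), C8g in 1 (quantile normalization) and Mbl2 in 1 (array weights). With the replicate number as a replicate block, 2 genes were higher, 11 lower and 6 called at ZT12, Cfb being the one gained on average, and the samples share only a number. Fcna lost its call in 13 of the 36 fits. The shares of all genes called are not given for the fits of this paragraph, so its counts only show how far the calls moved.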

Other observations

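Over the 18 high fat samples, the deviations of C8b from group means were also compared with those of all other tested genes, as a description without a test. After C6 the highest correlations were those of Nudt7, a peroxisomal hydrolase (r = 0.969), Selenbp2 (0.959), Lifr, a cytokine receptor (0.957), Abca8a (0.955), F11 (0.955), Cyp7b1, an oxysterol hydroxylase (0.952), Ttc39c (0.944), C8a (0.941) and Hsd3b5, a steroid dehydrogenase (0.938). Of these, Selenbp2 (-0.93 ± 0.16), Cyp7b1 (-0.76 ± 0.13), Hsd3b5 (-0.73 ± 0.22), Lifr (-0.60 ± 0.09), Nudt7 (-0.35 ± 0.07) and Abca8a (-0.19 ± 0.06) were lower on high fat diet, as were C6 and C8a (limma adjusted p = 4.69e-05, 0.0001, 0.0162, 1.87e-05, 0.000267 and 0.0279 for the first 6), while F11 and Ttc39c (-0.14 ± 0.05, limma adjusted p = 0.0517) were not called. The lowest correlations were those of Cidec, a lipid droplet protein (-0.953), Cd36, a fatty acid transporter (-0.935), Acot3 (-0.927), Abhd2 (-0.924) and Cyp2a22 (-0.921), which were higher on high fat diet, Cidec by 1.16 ± 0.20 and Cd36 by 0.86 ± 0.14 (limma adjusted p = 6.37e-05 and 3.15e-05). On chow the 10 genes of highest correlation, C6 among them, had r from -0.109 (F11) to 0.778 (Nudt7), with -0.098 for Abca8a and 0.101 for Ttc39c, and the 5 of lowest had r from -0.501 (Abhd2) to 0.118 (Cyp2a22).

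Of 18 acute phase genes tested, 6 rose and 2 fell on high fat diet, where 11.2% of all genes rose and 9.8% fell. The count that fell is near that share. Saa2 (1.15 ± 0.15), Lcn2 (1.24 ± 0.16) and Serpina3n (0.22 ± 0.04) were among those that rose, and Orm1 (-0.32 ± 0.04) and Hamp (-0.35 ± 0.11) were those that fell (limma adjusted p under 0.05). Of 17 transcription factor genes known to act on liver genes, Ppara (0.46 ± 0.05), Nr1i3 (0.33 ± 0.06) and Nr1h4 (0.11 ± 0.04) rose and Esr1 (-0.28 ± 0.05), Foxa3 (-0.24 ± 0.06) and Hnf4a (-0.13 ± 0.04, limma adjusted p = 0.0164) fell. The same shares of all genes stand beside these counts, and neither list was tested as a set.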
